A study of Mus musculus with 16 samples.

Results

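The clustered protocadherins are 3 neighbouring families of cell-surface adhesion genes, alpha, beta and gamma, that lie side by side on mouse chromosome 18. The members were taken by symbol: Pcdha and Pcdhac followed by a number, Pcdhb followed by a number, and Pcdhga, Pcdhgb and Pcdhgc followed by a number. This gave 58 genes of the 24421 symbols in the count table, 14 alpha, 22 beta and 22 gamma. The rule uses names only, and it was set with earlier results of these data known.

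Clustered protocadherins bind the same isoform on a neighbouring cell, and in neurons they help sister branches of 1 cell recognise and avoid each other. Each alpha and gamma transcript joins its own large variable exon to a few exons shared by its whole cluster, while each beta gene is a single exon. Most members are chosen at random in each neuron by looping of a distal enhancer to 1 promoter with CTCF and cohesin, and DNA methylation keeps other promoters silent. The C-type members (Pcdhac1, Pcdhac2, Pcdhgc3, Pcdhgc4 and Pcdhgc5) sit at the ends of their clusters and are used more uniformly, and most alpha proteins need partners to reach the cell surface.

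The tissue was lumbar dorsal root ganglion, which holds the cell bodies of sensory neurons, from C57BL/6 embryos at embryonic day 13.5, and polyA RNA was sequenced. The 16 libraries form 4 groups of 4: importin alpha3 knockouts (KO_alpha3), wild types titled with that line (WT_alpha3), mice lacking the 3′ untranslated region of the importin beta 1 gene (KO_beta), and wild types titled with that second line (WT_beta). The labels do not say whether the knockouts act in all cells, nor whether each library is a different embryo, and p-values therefore rest on the spread between these samples alone. The series' design states that the 8 wild types served both knockouts, because of a gender bias, so both knockout comparisons share their controls.

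Each library carries its group and title number here, and total counts ran from 19682595 to 26873361. Kpna4, the gene of importin alpha3, lay at 0.619 to 1.13 CPM (counts scaled to library size) in KO_alpha3 and at 69.5 to 81.4 CPM in the other libraries. Kpnb1, whose untranslated region was targeted, differed by 0.28 ± 0.10 (log2, KO_beta against wild types, edgeR adjusted p = 0.932), which does not check the label because the coding exons remain. The mean of 18 sensory neuron markers was 7.94 to 8.72 log2 CPM, so these markers were high on average in each library. Values of single markers are not given here. The mean over the lists of other cell types was highest in 4 wild types, WT_alpha3 79, WT_alpha3 45, WT_beta 401 and WT_beta 399. Single lists could differ, as WT_alpha3 45 was the lowest library in endothelial markers (4.99 log2 CPM). KO_alpha3 81, WT_beta 399 and WT_alpha3 79 were the lowest in the lumbar-level gene Hoxa10, at 0.877, 1.89 and 4.38 CPM. The other libraries had 22.5 CPM of Hoxa10 or more. In a bulk library, fewer cells of a type and less RNA per cell cannot be told apart.

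In GENCODE M21 (GRCm38), the alpha members span 36930184 to 37187661 on chromosome 18, the beta members 37264938 to 37524479 and the gamma members 37661793 to 37841873, on the plus strand. Shared exons limit the counting of the alpha and gamma members. A median of 2860 exonic bases per alpha gene (53.6%) and 2119 per gamma gene (44.7%) also belong to another gene, against 0 in 20 of the 22 beta genes. Pcdhb21 and Pcdhb22 overlap over 455 bases. Pcdhgb8 has 0 bases of its own in this annotation, Pcdha4 has 494, and Pcdha10 has no model there. No source used here gives the submitters' annotation or how reads in shared exons were counted, and a value for a single alpha or gamma member may miss or misplace shared reads.

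Of the 58 members, Pcdhb1 alone had no count in any library, which allows up to 0.112 to 0.155 CPM in each (3 counts; counting error only). Pcdha4, Pcdha6 and Pcdha7 had 1 to 15 counts per library and did not pass the filter on low counts. The other 54 members were tested, 11 alpha, 21 beta and 22 gamma. Pcdha8 was the weakest tested alpha member, with 0 to 21 counts per library.

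The gamma C-type member Pcdhgc3 stood above all other members per length. On the scale of CPM per kilobase of a gene's own exonic bases, it was at 31.3 ± 3.12 (mean ± SD, n = 16 libraries), with a range of 26.1 to 36.1. Pcdhgc3, which restrains Wnt signalling through Axin1 and promotes dendrite branching in cortical neurons, also made up 32.4% ± 2.24 of the gamma counts. Pcdhga11 had the next highest mean, 10.1 ± 1.82 CPM per kilobase, with a range of 7.48 to 13.6 that did not reach that of Pcdhgc3.

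Below Pcdhgc3, the ranges of neighbours in the order overlapped, those of Pcdhga11 and Pcdhgb6 included. Pcdhgb6 was at 8.59 ± 0.926, Pcdhga3 at 7.97 ± 1.39 and Pcdhga4 at 7.74 ± 1.19 CPM per kilobase. Pcdhac2, an alpha C-type member needed for the tiling of serotonergic axons, was at 6.79 ± 2.92, and these 4 neighbours overlapped. Pcdhac2 was the highest alpha member and made up 29.1% ± 2.74 of the alpha counts, followed by Pcdha12 at 3.87 ± 1.53 and Pcdha9 at 3.02 ± 1.27 CPM per kilobase. Among beta genes Pcdhb17 was highest, at 2.59 ± 0.431, followed by Pcdhb9 at 1.72 ± 0.534. By mean CPM, without a length, Pcdhb18 (6.85, range 3.49 to 10.7) and Pcdhb22 (6.14, range 4.04 to 8.97) came after Pcdhb17, and their ranges overlapped.

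Family medians followed the same order as the leading members. The median member of the gamma cluster lay at 3.16 CPM per kilobase, that of the alpha cluster at 1.41 and that of the beta cluster at 0.850. With all annotated exons as the length, the gamma median was 2.16 and the alpha median 0.711, below beta. The order of alpha and beta therefore depended on how the shared exons were treated, while gamma stayed above both and Pcdhgc3 stayed above Pcdhga11 (19.2 and 5.58 CPM per kilobase of all exons). At the low end, Pcdhb14 was at 0.238 ± 0.0677 CPM per kilobase, and Pcdhgc5, a C-type member that rises in older neurons, at 0.161 ± 0.0437. Pcdha6 had the lowest level of the detected members with a length, 0.0953 ± 0.0532.

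**Figure D1:**
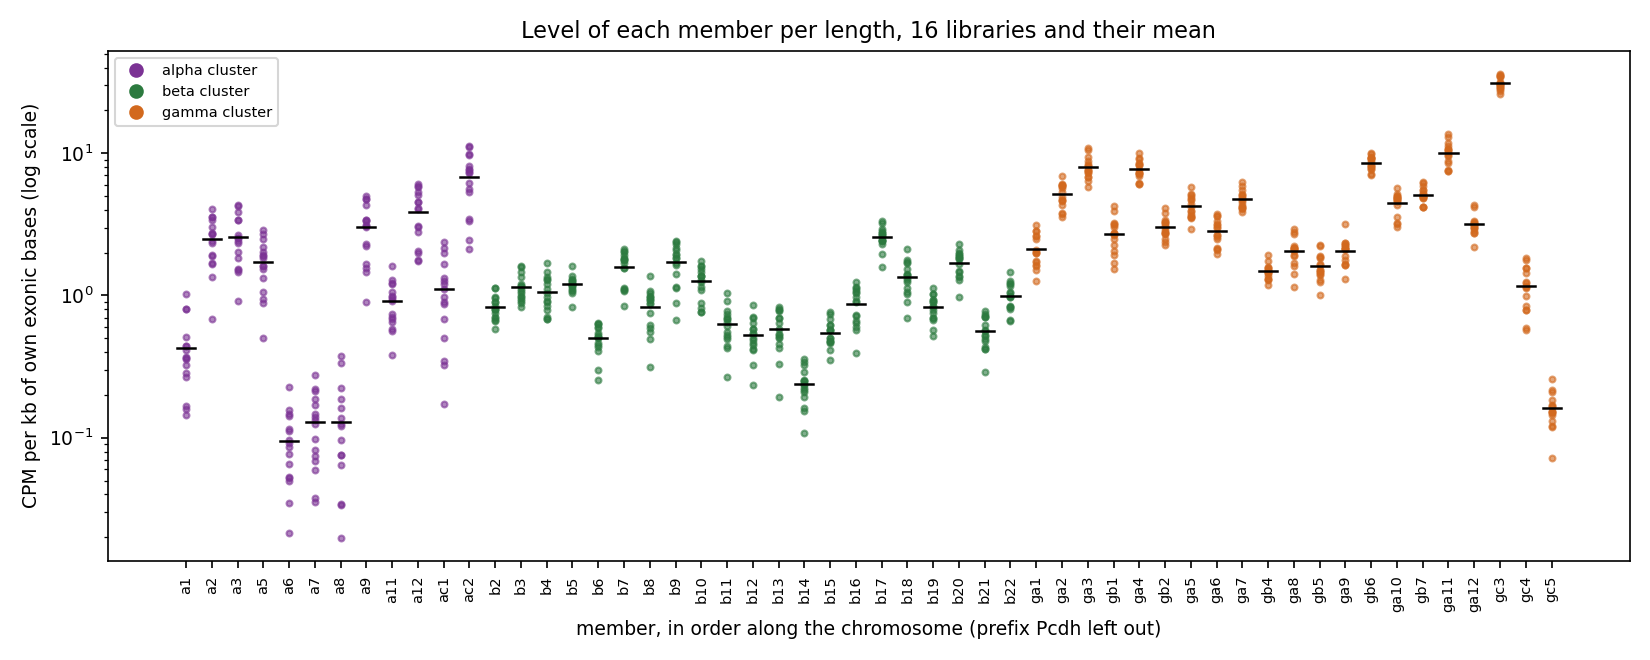
Level of each detected member in CPM per kilobase of its own exonic bases (log scale), in order along the chromosome and coloured by cluster; points are the 16 libraries, 0 values left out, and bars are means. Pcdhgc3 sits at 31.3, above all other members, and the alpha members have the widest spread between libraries; Pcdha4, Pcdha10 and Pcdhgb8 lack a usable length and Pcdhb1 has no count.

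Levels of the alpha cluster varied most between libraries. The WT_alpha3 libraries alone spanned the whole range, while the spread within WT_beta and within KO_beta was narrower. The summed alpha members were at 35.7, 108, 115 and 22.9 CPM in WT_alpha3 45, 54, 55 and 79, and at 39.5, 97.1, 58.0 and 35.05 CPM in KO_alpha3 42, 50, 75 and 81. In WT_beta 399, 401, 410 and 415 they were at 60.3, 55.1, 79.2 and 80.2 CPM, and in KO_beta 398, 402, 406 and 411 at 73.7, 73.1, 76.0 and 104 CPM. The highest library held 5.02 times the alpha level of the lowest, both of them wild types of the alpha3 line, and all 4 groups overlapped.

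The beta and gamma sums put the same libraries at their ends with smaller distances. Beta sums were at 63.3, 108, 115 and 52.5 CPM in WT_alpha3, 69.5, 100.2, 86.9 and 69.1 CPM in KO_alpha3, 92.8, 82.5, 95.9 and 95.3 CPM in WT_beta and 95.1, 82.7, 88.6 and 111 CPM in KO_beta, in the order of libraries above. Gamma sums were at 282, 382, 389 and 273 CPM in WT_alpha3, 294, 357, 345 and 292 CPM in KO_alpha3, 301, 340, 312 and 304 CPM in WT_beta and 357, 336, 318 and 347 CPM in KO_beta. WT_alpha3 79 was lowest and WT_alpha3 55 highest in both clusters, by 2.19-fold for beta and 1.43-fold for gamma. The alpha share of all clustered protocadherin counts thus ranged from 6.59% in WT_alpha3 79 to 18.6% in WT_alpha3 55.

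At the ends of the range, most members of a cluster lay on the same side. The libraries there were picked by sums of the same members, so such counts follow in part from that choice. The share of all genes above their own median was not computed. WT_alpha3 55 was above a member's own median over libraries for 11 of 11 tested alpha, 21 of 21 beta and 21 of 22 gamma members. For WT_alpha3 79 these counts were 0, 0 and 4, and for WT_alpha3 45 they were 0, 0 and 3. The gamma members were split in other libraries, with 8 of 22 above their median in WT_beta 410 and 415, 9 in KO_alpha3 75, 12 in WT_beta 401 and 13 in KO_beta 406. Over single members, the fold from the lowest to the highest library had a median of 5.89 in the alpha cluster (13 members with a count in every library), 2.50 in the beta cluster (21 members) and 1.93 in the gamma cluster (22 members). Pcdhac1 had the largest fold, 13.7, and Pcdhgc3 the smallest, 1.38.

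Library maturity was read from 2 globins of embryonic red cells. Hbb-bh1 is the earlier and Hbb-y the later of these transcripts during red cell maturation. A higher log2 ratio of Hbb-bh1 to Hbb-y (1 count added to each) was therefore read as an earlier library. The ratio does not scale with the amount of blood by itself, but both went together in part here. Hbb-y was at 3526, 330, 264 and 5636 CPM in WT_alpha3 45, 54, 55 and 79. KO_beta 398, with a low ratio, had 2347 CPM. The ratio was -4.79, -6.90, -6.68 and -4.10 in WT_alpha3 45, 54, 55 and 79, and -5.10, -6.79, -6.02 and -3.71 in KO_alpha3 42, 50, 75 and 81. It was -5.17, -6.04, -6.87 and -6.62 in WT_beta 399, 401, 410 and 415, and -6.06, -6.35, -6.44 and -6.98 in KO_beta 398, 402, 406 and 411. The earliest libraries, KO_alpha3 81 and WT_alpha3 79, belong to a knockout and a wild-type group.

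**Figure D2:**
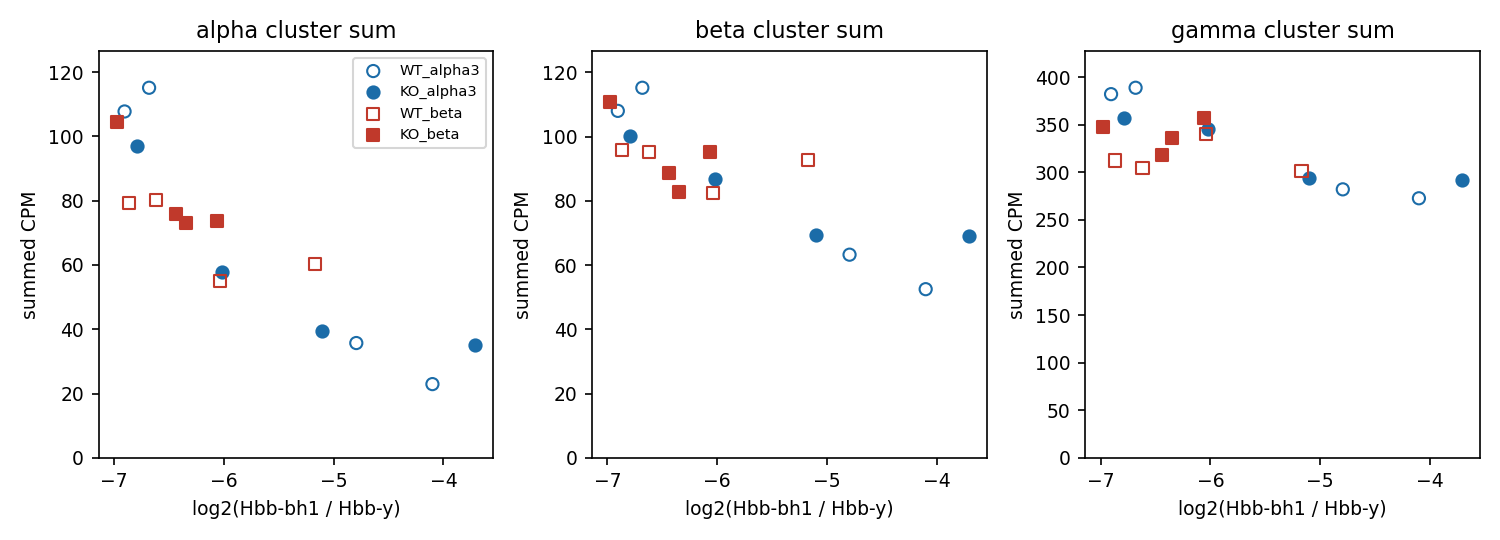
Summed CPM of the alpha, beta and gamma members (y axis, linear from 0) against the log2 ratio of Hbb-bh1 to Hbb-y (x axis; higher is earlier), 1 point per library, with open symbols for wild types and filled symbols for knockouts. Alpha sums range from 22.9 to 115 CPM and are low in the early libraries, while gamma sums stay between 273 and 389 CPM.

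Clustered protocadherins were lower in earlier libraries, most of all the alpha members. In edgeR's quasi-likelihood test of the ratio with the 4 groups as a term, 41 of the 54 tested members had a negative slope past the threshold (Benjamini-Hochberg adjusted over all genes), against 26.1% of the 15641 genes tested. No member passed with a positive slope, against 20.5% of all genes. The called members were 11 of 11 alpha, 17 of 21 beta and 13 of 22 gamma. Median slopes were -0.59 for alpha, -0.28 for beta and -0.16 for gamma members, in log2 units per doubling of the ratio, beside -0.0052 for all genes tested. The slopes of the alpha members (-1.02 to -0.41) did not overlap with those of the gamma members (-0.27 to 0.12), though all members share the same libraries.

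Both alpha C-type members had steep slopes. Pcdhac2 was at 10.4, 33.99, 33.8 and 6.45 CPM in WT_alpha3 45, 54, 55 and 79 and at 10.2, 29.7, 18.6 and 7.39 CPM in KO_alpha3 42, 50, 75 and 81. It was at 17.1, 16.2, 22.1 and 24.6 CPM in WT_beta and at 23.2, 23.4, 22.3 and 29.6 CPM in KO_beta, in the order of libraries above. Libraries with a high ratio were the low ones in both genotypes of the alpha3 line, and its slope was -0.69 ± 0.07 (SE; edgeR, Benjamini-Hochberg adjusted p = 1.45e-05).

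Pcdhac1, the C-type member just before Pcdhac2 on the chromosome, spanned the widest range. It was at 0.881, 5.52, 6.08 and 0.443 CPM in WT_alpha3, at 1.28, 5.09, 2.83 and 0.835 CPM in KO_alpha3, at 1.74, 2.24, 3.25 and 3.09 CPM in WT_beta and at 2.49, 3.38, 2.29 and 4.26 CPM in KO_beta. The 4 libraries with the highest alpha3-line ratios held the 4 lowest values. Its slope was -1.01 ± 0.11 (edgeR, Benjamini-Hochberg adjusted p = 1.95e-05), and its share of the alpha counts went from 1.93% in WT_alpha3 79 to 5.28% in WT_alpha3 55.

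The randomly chosen alpha members had the same direction. Pcdha12 was at 4.36, 14.5, 14.3 and 4.33 CPM in WT_alpha3, 5.12, 11.3, 7.56 and 4.89 CPM in KO_alpha3, 6.95, 7.58, 12.6 and 11.2 CPM in WT_beta and 10.1, 10.2, 13.2 and 14.98 CPM in KO_beta. Its slope was -0.55 ± 0.07 (edgeR adjusted p = 3.98e-05), and that of Pcdha3 was -0.55 ± 0.08 (adjusted p = 1.2e-04). All 9 tested members of this kind passed, from Pcdha8 at -1.02 ± 0.25, which had the fewest counts, to Pcdha11 at -0.41 ± 0.09, with Pcdha1 at -0.71 ± 0.14 and Pcdha9 at -0.59 ± 0.10 between them.

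Among beta members Pcdhb8 had the steepest slope. It was at 1.92, 3.37, 4.74 and 1.72 CPM in WT_alpha3, 2.16, 3.26, 3.05 and 1.09 CPM in KO_alpha3, 2.61, 3.43, 3.37 and 3.62 CPM in WT_beta and 2.07, 3.26, 3.10 and 3.75 CPM in KO_beta. The lowest value belonged to KO_alpha3 81, the library with the highest ratio. The slope was -0.47 ± 0.07 (edgeR, Benjamini-Hochberg adjusted p = 1.75e-04), followed by Pcdhb9 at -0.44 ± 0.09 (adjusted p = 9.07e-04). Pcdhb17, the most abundant beta gene, had a slope of -0.17 ± 0.06 (adjusted p = 0.0273), and Pcdhb18 (-0.30 ± 0.08) and Pcdhb22 (-0.27 ± 0.06) passed as well. The 4 beta members that missed the threshold were Pcdhb2 (-0.17 ± 0.08), Pcdhb5 (-0.12 ± 0.06), Pcdhb6 (-0.10 ± 0.10) and Pcdhb15 (-0.17 ± 0.08).

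The gamma cluster was mixed. By type, 7 of 12 Pcdhga, 4 of 7 Pcdhgb and 2 of 3 Pcdhgc members passed, all with negative slopes. The lowest p belonged to Pcdhga10 (-0.22 ± 0.03, edgeR adjusted p = 2.0e-04) and Pcdhgb5 (-0.27 ± 0.05, adjusted p = 5.01e-04). Pcdhga12 was at 14.5, 14.7, 19.8 and 12.9 CPM in WT_alpha3 and at 14.2, 14.4, 15.3 and 19.1 CPM in KO_alpha3. It was at 14.3, 13.7, 12.6 and 12.5 CPM in WT_beta and at 15.03, 13.5, 13.5 and 10.02 CPM in KO_beta, with a slope of 0.03 ± 0.06 that did not pass and whose sign changed between settings. Pcdhgb4 had a slope of 0.00027 ± 0.06 and Pcdhgb8 one of 0.07 ± 0.11, and neither passed.

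The 3 gamma C-type genes differed from each other in slope. Pcdhgc3 was at 99.7, 122, 119 and 95.2 CPM in WT_alpha3, 102, 116, 118 and 99.2 CPM in KO_alpha3, 88.3, 121, 106 and 92.9 CPM in WT_beta and 104, 107, 97.1 and 104 CPM in KO_beta. Its slope of -0.10 ± 0.03 passed (edgeR adjusted p = 0.0140), and its range was the narrowest of the members. Pcdhgc4, which some central neurons need to survive, had a slope of -0.25 ± 0.10 at the edge of the threshold (adjusted p = 0.049997), and missed it without WT_alpha3 79 (-0.18, adjusted p = 0.234) and under both other scalings run. Pcdhgc5, at 0.400 to 1.43 CPM, had a slope of 0.12 ± 0.11 that did not pass (adjusted p = 0.381). The slopes were not tested against each other.

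**Figure D3:**
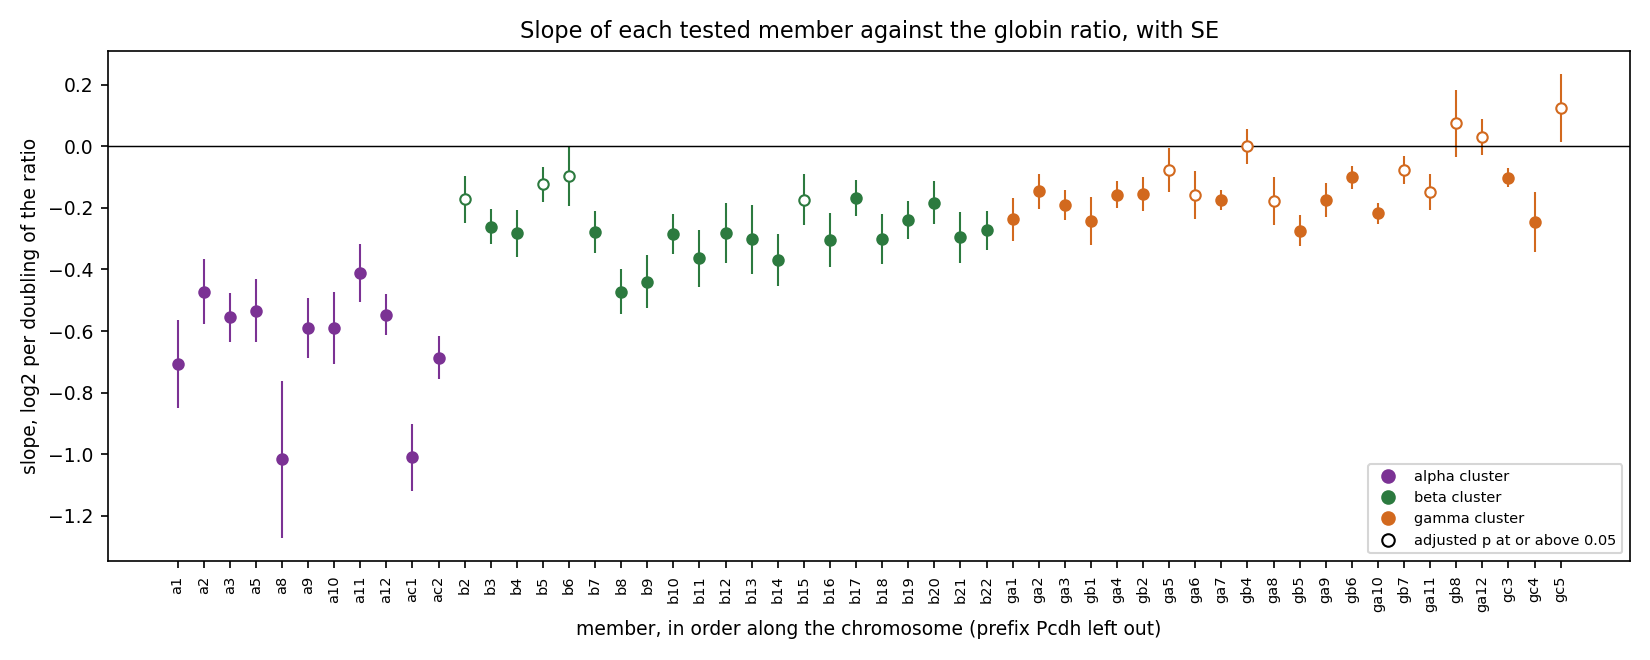
Slope of each of the 54 tested members against the log2 globin ratio (log2 per doubling, edgeR with group as a term, bars are SE), in order along the chromosome; filled points passed an adjusted p of 0.05. The 11 alpha members lie at or below -0.41, the beta members between -0.47 and -0.10 and the gamma members between -0.27 and 0.12.

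**Figure D4:**
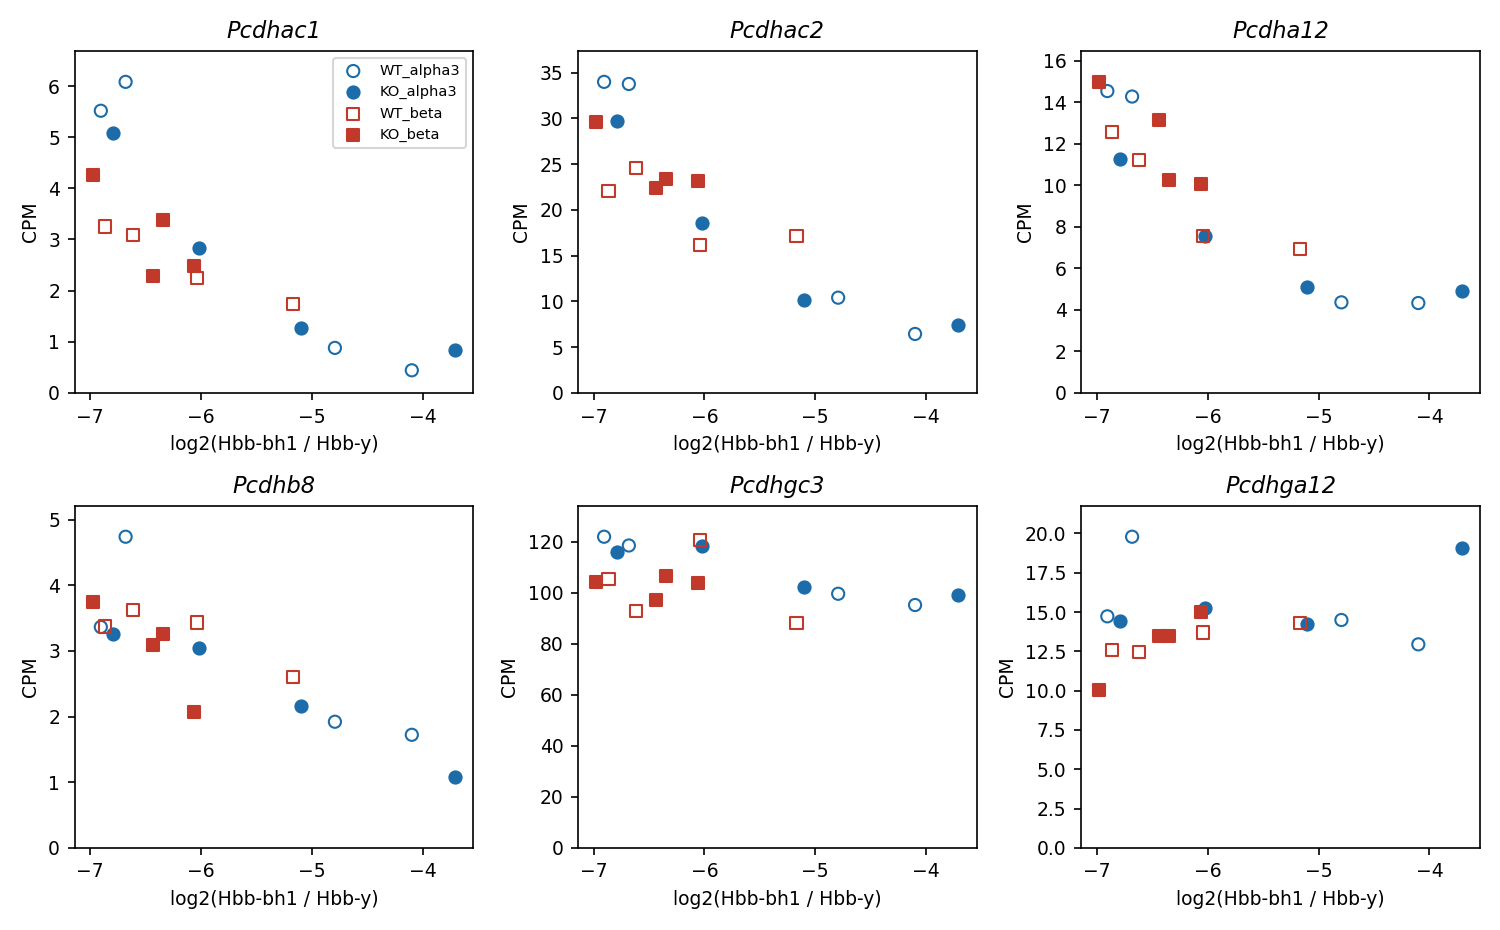
CPM (linear from 0) of 4 members with steep and 2 with shallow slopes against the log2 ratio of Hbb-bh1 to Hbb-y, 1 point per library, open for wild types and filled for knockouts. Pcdhac1, Pcdhac2, Pcdha12 and Pcdhb8 fall toward the early libraries, while Pcdhgc3 stays within 88.3 to 122 CPM and Pcdhga12 within 10.02 to 19.8 CPM.

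Position within a cluster was at most weakly related to the slope. Spearman's rho between order on the chromosome and slope was -0.15 over 10 alpha, -0.12 over 21 beta and 0.37 over 22 gamma members. Between mean level and slope it was 0.44, 0.066 and 0.090. These are descriptions over genes that share the same libraries and, in the alpha and gamma clusters, exons.

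Within the groups, negative slopes were most uniform in the alpha3 line. All 11 alpha and all 21 beta members had a negative slope within WT_alpha3 and within KO_alpha3, as did 19 and 20 of the 22 gamma members, over 2.81 and 3.08 units of log2 ratio. Within WT_beta, over 1.70 units, 9 alpha, 12 beta and 10 gamma members were negative, and within KO_beta, over 0.916 units, 10, 18 and 8 were. The share of all genes with a negative slope within a group was not computed. These signs therefore have no background to be read against, and members share the same few libraries. In the 8 wild types alone 27 of 53 members passed (10 of 10 alpha, 11 of 21 beta, 6 of 22 gamma), against 18.1% of all genes with a negative slope.

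The number of members called also rested on single libraries. Without WT_alpha3 79 it was 26 of 56 tested (12 of 13 alpha, 10 of 21 beta, 4 of 22 gamma), against 17.97% of all genes, which is close to the gamma share. The gamma count, of 22 tested, was 7 without WT_alpha3 45 or KO_alpha3 50 and 6 without WT_alpha3 54 or 55. It was 8 without KO_alpha3 42, KO_alpha3 75 or KO_beta 402. In these fits 19.5% to 21.9% of all genes passed with a negative slope. The alpha count was 11 or 12, of 11 to 13 tested, in each of these fits.

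Other gene sets moved with the ratio too. The counts below stand against 26.1% of all genes with a negative and 20.5% with a positive slope. All 17 progenitor and cell cycle markers passed with a positive slope (median 0.59), and their mean ranged from 4.13 to 6.48 log2 CPM between libraries. Of 18 sensory neuron markers 8 passed with a negative and 4 with a positive slope (median -0.10), and of 11 glial and Schwann precursor markers 7 passed with a negative and 0 with a positive slope (median -0.26). Of 15 spinal cord markers 7 passed with a positive slope (median 0.85). Sympathetic ganglion markers had the largest median, 1.33, and 2 of 10 passed in each direction. Erythroid markers, which include both globins of the ratio, had a median of 0.99, and 4 of 7 passed with a positive slope. Their part in the protocadherin slopes was not tested beyond the following fits.

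With the spinal cord mean as a further term, 20 of 54 members passed (9 of 11 alpha, 3 of 21 beta, 8 of 22 gamma), against 16.6% of all genes, and the beta share was no higher than that background. With WT_alpha3 79 and 45 and WT_beta 401 and 399 left out, 14 of 56 passed (8 of 13 alpha, 3 of 21 beta, 3 of 22 gamma), against 14.3% of all genes, and the beta and gamma shares were no higher than that background. Without the 2 libraries of highest ratio, 24 of 56 passed (12 of 13 alpha, 7 of 21 beta, 5 of 22 gamma), against 16.1% of all genes. The 3 libraries lowest in Hoxa10 include those 2. Without the 3, the slopes of 33 named members and pathway genes kept sign and call, 6 no longer passed and 1 newly passed. The 33 include pathway genes and slopes that passed in neither fit, so no share over all genes stands beside them. With the sensory neuron mean as a term 4 passed (3 alpha, 1 beta), against 4.18% of all genes with a negative slope. With the progenitor mean as a term 0 passed, and 44 of all 15641 genes did. With the Hbb-y level as a term 0 passed, and 12 of all genes did, so the ratio and the Hbb-y level cannot be told apart here. With the progenitor mean in place of the ratio 45 passed (11 alpha, 19 beta, 15 gamma), against 28.6% of all genes, so the ratio and the progenitor level cannot be told apart here.

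Of 27 genes for promoter looping and chromatin, 15 passed with a positive and 0 with a negative slope, against 20.5% and 26.1% of all genes, and 12 did not pass. Dnmt3b, the enzyme that methylates the randomly chosen promoters early in development, had a slope of 0.32 ± 0.04 (edgeR adjusted p = 9.41e-05), and Dnmt1, which maintains methylation after DNA replication, one of 0.23 ± 0.03 (adjusted p = 8.27e-05). Among 25 signalling partners and proteases, 6 passed with a negative and 4 with a positive slope, which is no more than the shares over all genes. Ret, a receptor tyrosine kinase that phosphorylates clustered protocadherins, had a slope of -0.59 ± 0.10 (adjusted p = 4.02e-04), and Ptk2, the focal adhesion kinase, one of 0.17 ± 0.03 (adjusted p = 0.00132).

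Of 13 protocadherins outside the clusters, 3 passed in each direction, near the shares over all genes (26.1% negative, 20.5% positive), with Pcdh20 at 1.00 ± 0.13 (edgeR adjusted p = 8.17e-05) and Pcdh1, which lies near the locus, at -0.32 ± 0.04 (adjusted p = 1.02e-04). Of 31 other cadherins, 16 passed with a negative slope and 1 with a positive slope, among them Cdh11, a classical cadherin, at -0.43 ± 0.04 (adjusted p = 1.19e-05), and Cdh1, or E-cadherin, at -1.05 ± 0.15 (adjusted p = 1.2e-04). Of 27 genes beside or within the locus, Pcdh1 among them, 8 passed with a negative and 6 with a positive slope (median 0.0085), also near those shares. Rell2, a neighbour beyond the gamma cluster, was at -0.49 ± 0.07 (adjusted p = 9.48e-05).

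Loss of importin alpha3 changed no clustered protocadherin past the threshold. The comparison of KO_alpha3 with the 8 wild types called 0 of 54 members (edgeR, Benjamini-Hochberg over all genes), against 0.00639% of all genes, which is Kpna4 alone. DESeq2 also called 0 members. At an unadjusted p under 0.05, 1 member was lower, against 6.63% of all genes, and 0 were higher, against 4.21%. Median log2 differences were -0.31 for alpha, -0.10 for beta and -0.051 for gamma members, beside -0.0059 for all genes. The alpha median ranged from -0.15 without KO_alpha3 42 to -0.67 without KO_alpha3 50, the beta median from -0.020 to -0.22 without the same libraries, and the gamma median from -0.00070 without WT_alpha3 55 to -0.13 without KO_alpha3 50. Markers of other cell types were lower in the same comparison, with medians of -2.23 for spinal cord (15 of 15 negative), -2.65 for sympathetic ganglion (9 of 10) and -1.61 for skeletal muscle (12 of 12). None of these markers passed (edgeR, Benjamini-Hochberg), 9, 5 and 12 of them were lower at an unadjusted p under 0.05, and their part in the protocadherin medians was not tested beyond leaving libraries out.

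The member with an unadjusted p under 0.05 was Pcdhgc4. It was at 1.998, 3.97, 2.74 and 2.05 CPM in KO_alpha3 42, 50, 75 and 81. In the wild types it was at 4.32, 5.42, 6.39 and 2.95 CPM in WT_alpha3 and 3.93, 6.197, 2.74 and 5.43 CPM in WT_beta. The groups overlapped, with 2 knockout libraries below all wild types. The log2 difference was -0.80 ± 0.26 (edgeR, Benjamini-Hochberg adjusted p = 0.346), and the adjusted p was 0.106 by DESeq2.

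Other members with low p in this comparison did not pass either. Pcdhgc5 had a log2 difference of -0.49 ± 0.25, Pcdhb12 -0.53 ± 0.25, Pcdhb10 -0.44 ± 0.22, Pcdha12 -0.39 ± 0.34 and Pcdha3 -0.39 ± 0.36. With the globin ratio as a covariate the medians became 0.022 for alpha, 0.036 for beta and 0.0061 for gamma members, a change of sign in each, with 0 members called. With WT_alpha3 79 and 45 and WT_beta 401 and 399 left out, the medians were -0.79, -0.33 and -0.13, again with 0 called.

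Loss of the importin beta 1 3′ untranslated region also changed no member past the threshold. Of 54 members 0 passed in KO_beta against the 8 wild types (edgeR, Benjamini-Hochberg), as did 0% of all genes, and DESeq2 called 0 members. At an unadjusted p under 0.05, 0 members were lower, against 1.63% of all genes, and 1 was higher, against 0.601%. That member was Pcdhga2, at 17.9, 15.7, 15.2 and 15.1 CPM in KO_beta 398, 402, 406 and 411. It was at 11.1, 15.3, 14.6 and 9.11 CPM in WT_alpha3 and 13.8, 12.7, 9.76 and 12.0 CPM in WT_beta. The knockouts lay at the upper end and overlapped with WT_alpha3 54, and the log2 difference was 0.38 ± 0.14 (edgeR, Benjamini-Hochberg adjusted p = 0.932).

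Medians in this comparison were 0.19 for alpha, 0.081 for beta and 0.086 for gamma members, beside -0.0026 for all genes. The alpha median was 0.031 without KO_beta 411, 0.038 without WT_alpha3 79, 0.086 without WT_alpha3 45, 0.31 without WT_alpha3 54 and 0.33 without WT_alpha3 55, and the beta median was -0.030 without KO_beta 411 and -0.015 without WT_alpha3 79. Progenitor markers were lower in this comparison, 17 of 17 with a median of -0.64, none past the adjusted threshold. Markers of other cell types were lower here too, against the same 8 wild types. Their medians were -1.51 for spinal cord (15 of 15 negative), -2.31 for sympathetic ganglion (8 of 10), -0.58 for skeletal muscle (12 of 12) and -0.98 for erythroid markers (7 of 7). None of these passed, and their part in the protocadherin medians was not tested beyond leaving libraries out. Among the members with the lowest p, Pcdhga1 had a log2 difference of 0.42 ± 0.20, Pcdhb4 0.30 ± 0.22, Pcdhb16 0.33 ± 0.26, Pcdha12 0.35 ± 0.33 and Pcdha11 0.30 ± 0.31, and none passed. With the ratio as a covariate the alpha, beta and gamma medians were 0.0078, -0.062 and 0.024. With WT_alpha3 79 and 45 and WT_beta 401 and 399 left out they were -0.23, -0.15 and -5.8e-05, with 0 called in both fits. KO_beta libraries all had a ratio of -6.06 or lower, and the wild types reached -4.10.

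**Figure D5:**
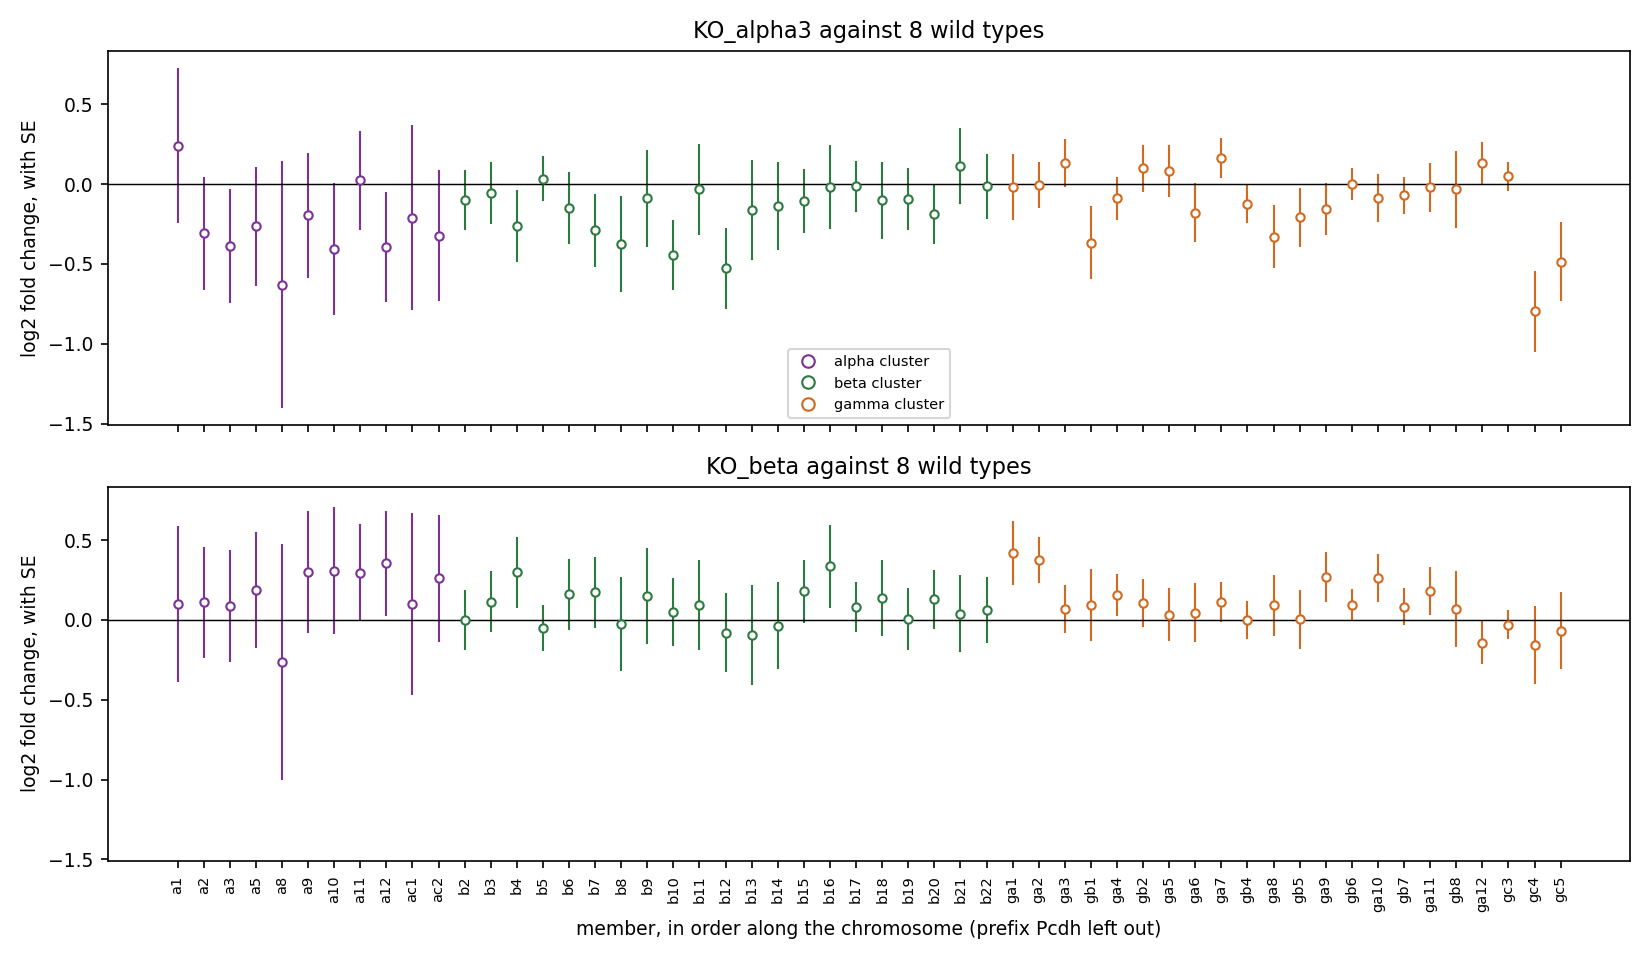
Log2 fold change of each tested member in KO_alpha3 (upper panel) and KO_beta (lower panel) against the same 8 wild types (edgeR, bars are SE), in order along the chromosome; open points did not pass an adjusted p of 0.05. All 54 points are open in both panels, and Pcdhgc4 at -0.80 is the lowest point for KO_alpha3.

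The wild types of both lines and the knockout effects were also compared with each other. Sex-linked reads were known from earlier work to move with the contrast of the wild types. No fit had a term for sex, so line and sex cannot be told apart here. Between WT_alpha3 and WT_beta 0 of 54 members passed (edgeR, Benjamini-Hochberg), against 0.0192% of all genes. At an unadjusted p under 0.05, 0 were lower, against 2.07%, and 0 were higher, against 3.2%. Pcdha8 had the lowest p, with a log2 difference of -1.70 ± 0.81 at 0 to 9 counts in WT_alpha3 and 5 to 21 in WT_beta. Pcdha1 differed by 0.52 ± 0.58, Pcdhb13 by -0.45 ± 0.35 and Pcdhb6 by -0.28 ± 0.26. Medians were 0.051 for alpha, -0.11 for beta and 0.10 for gamma members, and single libraries set their sign. The alpha median was -0.30 without WT_alpha3 55, -0.25 without WT_alpha3 54 and 0.30 without WT_alpha3 79, and -0.026 with library-size scaling.

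For the difference of both knockout effects, each against the wild types of its own line, 0 of 54 members passed (edgeR, Benjamini-Hochberg), against 0.00639% of all genes. At an unadjusted p under 0.05, 0 members were lower, against 0.703%, and 0 were higher, against 0.518%. DESeq2 called 0 members in both of these comparisons. Medians were -0.56 for alpha, -0.069 for beta and -0.24 for gamma members, and -0.044, 0.10 and -0.11 with the ratio as a covariate. The alpha median was -0.13 without WT_alpha3 55, -0.23 without WT_alpha3 54 and -0.85 without KO_alpha3 50, and the beta median ran from -0.25 without WT_alpha3 79 to 0.16 without WT_alpha3 55. The lowest p belonged to Pcdhgb1, at -0.74 ± 0.37 (edgeR adjusted p = 0.996).

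None of the pathway genes passed in either knockout comparison. The lowest p in the importin alpha3 comparison belonged to Cdh2, or N-cadherin, at 0.25 ± 0.07, and Cyfip2, a subunit of the WAVE complex that alpha and gamma protocadherins can recruit, at 0.29 ± 0.08 (both edgeR adjusted p = 0.330). Pcdh17, a protocadherin outside the clusters, was at 0.66 ± 0.20, Fat2, an atypical cadherin, at -0.95 ± 0.29, and Tet3, which oxidises methylated cytosine, at 0.22 ± 0.09. In the beta 1 comparison it belonged to Nlgn1, a synaptic adhesion gene, at -0.41 ± 0.20 (adjusted p = 0.932), while Dnmt1 was at -0.23 ± 0.15 and Pcdh8 at -0.33 ± 0.17.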

How the data were processed

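Per the labels, polyA RNA sequencing was done on 16 ganglion libraries. The submitters' processing notes list, without roles, the build mm10 with TopHat2 2.0.10, HTSeq 0.6.1p1, bcl2fastq 2.17.1.14, DESeq2 1.6.3 and cutadapt. Raw gene counts, as the authors deposited them, were used in every test. The authors also deposited a normalized signal, equal to the count times 1 constant per library, which was not tested. No source used here gives annotation, strand or counting mode. Gene models and lengths came from GENCODE M21.

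Tests were fitted with edgeR 4.0.16 under R 4.3.3 (TMM scaling, filterByExpr with minimum count 10 and minimum total 15, quasi-likelihood, 2-sided, Benjamini-Hochberg at 0.05 over the 15641 genes kept). Each knockout was compared with all 8 wild types in a fit with 3 groups. The other contrasts and the globin slope used 4 groups. DESeq2 1.42.0, other scalings, no filter, covariates and leaving out libraries were alternatives. The code was tested on simulated data. Cluster sums, being scores over members, had no test. Named were the C-type members, the 3 highest and the lowest detected of each cluster by mean CPM, up to 5 past the threshold in each direction, the 2 of lowest p per cluster and comparison, and the 2 of lowest p per pathway list. Some others were named after their values were seen. The members and lists were chosen with earlier results of these data known. No sequence of these genes is shown here.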

Additional observations from a re-analysis of the deposited data

Results flagged for a closer look

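Sample values were checked for 1 library far from the other 3 of its group, over the 3 cluster sums and 32 named members in 4 groups. Of 140 groups of 4, 7 were flagged, and chance alone flags about 1 in 20, or 7. In 6 of the 7 the library was KO_beta 411, which has the lowest globin ratio of all 16 libraries. These 6 flags are not separate observations, since the alpha sum contains Pcdhac2, Pcdha3 and Pcdha11. The alpha sum of KO_beta 411 was 104 CPM against 73.1 to 76.0 CPM in the other KO_beta libraries. Pcdhac2 was at 29.6 CPM against 22.3 to 23.4 CPM, Pcdha3 at 9.58 against 6.01 to 6.29 CPM, and Pcdha11 at 9.23 against 6.82 to 7.15 CPM. Pcdhgb5 was at 10.2 CPM against 6.77 to 6.93 CPM, while Pcdhgb6 was lower there, at 20.9 against 23.7 to 24.1 CPM. The seventh was Pcdhb6 in WT_beta 399, at 2.42 CPM against 1.90 to 1.98 CPM.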

How the results depend on the processing

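The knockout, line and difference comparisons called 0 members under each alternative run. The slope against the globin ratio called 41 members (11 alpha, 17 beta, 13 gamma), and 26 to 42 when 1 library was left out (alpha 11 to 12, beta 10 to 17, gamma 4 to 13). Of all genes 26.1% passed with a negative slope, and 17.97% to 27.2% when 1 library was left out. The slope called 27 members in the wild types alone (11 beta, 6 gamma) and 20 with the spinal cord mean as a term (3 beta, 8 gamma), and 8 gamma members with library-size scaling. Alternatives chosen after seeing the data gave 14 with the 4 libraries of most other-cell markers left out (3 beta, 3 gamma), 24 without the 2 of highest ratio (7 beta, 5 gamma), 4 with the sensory neuron mean (3 alpha, 1 beta, 0 gamma), and 0 in each cluster with the Hbb-y level or the progenitor mean as a term. The cause was not tested. With the progenitor mean as a term the slope turned for Pcdha8 (0.25), Pcdha9 (0.17), Pcdha11 (0.28), Pcdhb6 (0.52), Pcdhb9 (0.079), Pcdhb10 (0.096), Pcdhb13 (0.43), Pcdhb15 (0.094), Pcdhb16 (0.23), Pcdhb17 (0.23), Pcdhb18 (0.23), Pcdhb22 (0.16), Pcdhga1 (0.043), Pcdhga2 (0.053), Pcdhga11 (0.21), Pcdhgb1 (0.040), Pcdhgb6 (0.0015), Pcdhgc5 (-0.17), Ret (0.14), Ptk2 (-0.0083) and Rell2 (0.015). With the sensory neuron mean it turned for Pcdhb6 (0.089), Pcdhb17 (0.025), Pcdhga11 (0.011) and Pcdhgc5 (-0.14), and with Hbb-y for Pcdhb13 (0.054), Pcdhb17 (0.026), Pcdhga11 (0.011) and Pcdhgc5 (-0.17). With the 4 libraries of most other-cell markers left out it turned for Pcdhgc5 (-0.099), and the beta 1 difference turned for Pcdha11 (-0.072), Pcdha12 (-0.12) and Pcdhb4 (-0.016). The Pcdhga12 slope was -0.066 in the wild types alone, -0.035 with the progenitor mean in place of the ratio, -0.018 with the spinal cord mean, and -0.010 to 0.11 when 1 library was left out. No paired analysis was possible because no replicate number is shared between groups. Low counts limit Pcdha4, Pcdha6, Pcdha7 and Pcdha8.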
